A study of Homo sapiens with 4 samples.

Results

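The genes of 7 S100 proteins (S100A4, S100A6, S100A8, S100A9, S100A10, S100A11 and S100A12) and 3 annexins (ANXA1, ANXA2 and ANXA5) were followed in THP1 cells depleted of MLL-AF9 by siRNA. Their probes were chosen by name: every probe of the deposited intensity table that carried 1 of these gene names, was not a control and had a spot weight above 0 on all 4 arrays. This gave 13 probes for 10 genes, of 26219 probes with 20654 names in all, and no probe of the members was lost to the weights. THP1 is a cell line of acute myeloid leukemia of the M5 type that carries the MLL-AF9 fusion. Cells were treated on days 0, 3 and 6 with siRNA-A or siRNA-B, both directed against the fusion point of MLL-AF9 (knockdown), or with 1 of 2 non-targeting siRNAs, named control siRNA-1 and control siRNA-2 (control), and were harvested on day 8. All of them were kept in 10% serum up to day 6 and in 0.5% serum thereafter. Each of the 4 single-colour Agilent arrays held a pool of RNA from 5 experiments. Each group thus had 2 arrays of 1 cell line, and the spread within a group includes that between different siRNAs.

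S100 proteins are small calcium-binding proteins of the EF-hand type, in which a short loop of acidic residues holds the calcium ion. S100A8 and S100A9 form the heterodimer calprotectin, an abundant cytosolic protein of neutrophils and monocytes that is released in inflammation, and S100A12 is another myeloid member of this calgranulin group. Annexins are calcium-dependent binders of membrane phospholipids, and some S100 proteins bind their N-terminal tails. S100A10 pairs with ANXA2 in a complex that recruits plasminogen to the cell surface, S100A11 binds ANXA1, and ANXA1 is also an anti-inflammatory ligand of formyl peptide receptors.

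Intensities are given on the log2 scale as deposited, without background correction or normalization between arrays. Median log2 intensity over the analysed spots was 8.56 to 8.65 in the 4 arrays, and 70.0% to 74.3% of spots were well above background. All arrays sat on 1 slide, knockdown pools at positions 1 and 2 and control pools at 3 and 4, and position and treatment cannot be told apart. Among 6 probes for either partner of the fusion, 2 for MLLT3, which encodes AF9, were called and 4 for MLL were not. The MLLT3 probes fell, with log2 fold changes of -0.76 (standard error 0.11) and -0.63 (standard error 0.12). The MLL probe A_33_P3390570 read 10.55 with siRNA-A, 10.64 with siRNA-B, 10.95 with control siRNA-1 and 11.08 with control siRNA-2, lower in both knockdown arrays by 0.41 (standard error 0.11, unadjusted p = 0.00590 in limma), just outside the call, and the other 3 MLL probes had log2 fold changes of -0.085 to 0.048. The value of -0.085 came from A_24_P136402, which had intensities of 40 to 48 and was well above background on 1 of 2 knockdown arrays. The fusion keeps the 5′ part of MLL and the 3′ part of MLLT3. No probe lies on the fusion point, and where that point falls among the probes was not determined here. A_33_P3390570 (from 118348856 of hg19) lies 5′ of the other MLL probes (from 118361998 on). Fused and unfused transcripts were thus not told apart. Of 9 monocytic marker genes 7 were measured, all well above background on every array, and their intensities summed to 27337 after siRNA-A and 32210 after siRNA-B, against 26521 and 25437 in the controls. CD14 was the only gene of these 7 that was called, with a log2 fold change of 1.05 (adjusted p = 0.0355 in limma). After normalization between arrays or background subtraction no probe had an adjusted p under 0.05, CD14 included. ITGAX (0.62) and MNDA (0.44) were next in size, 5 of 7 were positive, and CD33 (-0.11) and CD68 (-0.15) were negative. Some signs differed between the siRNAs. Against the control mean, CD33 was -0.25 with siRNA-A and 0.032 with siRNA-B, and ITGAM was -0.28 and 0.39. MNDA carried much of the sum, which without it was 15249 after siRNA-A and 18341 after siRNA-B against 16570 and 16303 in the controls, so that the groups overlapped. Among markers of other cells, the summed intensity was 3763 and 3611 after knockdown and 4436 and 4827 in controls for T and NK cells, nearly all of it from NKG7 (179.5 to 199 without it), 2138 to 2274 for B cells, 421 to 517 for erythroid cells, 98.0 to 123 for fibroblasts and 43.0 to 47.0 for epithelial cells. None of these markers was called, and their part in the results was not tested.

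All 13 member probes are 60 bases long, and 0 of them shared a run of 20 bases with another probe in the comparison. Since the results differ between probes of 1 gene, the sequences of the probe pairs of S100A12 and ANXA2 and 1 probe each of S100A11 and S100A9 are shown. They are taken from the scanner tables and written from the 5′ end in the sense of the transcript. Capitals mark a stretch of 36 bases, found by a search for the codon pattern of the EF-hand loop in an open frame, that corresponds to 12 codons of a calcium-binding loop. For A_23_P74001 and A_32_P148345 the first 30 bases are given.
S100A12 A_33_P3385785: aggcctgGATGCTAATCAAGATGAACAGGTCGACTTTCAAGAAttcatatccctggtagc
S100A12 A_23_P74001: tgaaggctttttacccagcaatgtcctcaa
S100A11 A_23_P126593: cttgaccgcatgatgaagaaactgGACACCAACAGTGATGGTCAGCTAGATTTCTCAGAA
S100A9 A_23_P23048: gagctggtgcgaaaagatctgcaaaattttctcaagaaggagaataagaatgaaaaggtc
ANXA2 A_23_P146644: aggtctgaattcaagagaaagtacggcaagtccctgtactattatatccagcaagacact
ANXA2 A_32_P148345: taagccaaagaaatgtacattccaagcagt
The loop pattern was written with these probes in view, was found on the forward strand of 2 member probes and was present in 3 of 26219 probes (0.0114%). No match in another probe says only that these letters are not in its 60 bases.

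Most S100 and annexin probes did not pass the test between MLL-AF9 knockdown and control. The call used here, an unadjusted p under 0.005 in limma, was reached by a probe of ANXA2 that fell by 0.54 on the log2 scale. Of the 13 member probes 1 was called, lower after knockdown, which is 7.69% against 1.32% of all probes in either direction (0.732% lower and 0.584% higher). No member probe had an adjusted p under 0.05, which 0.118% of all probes had, and the lowest among the members was 0.253 in limma. After normalization between arrays or with either background-subtracted signal, no probe of the whole array had an adjusted p under 0.05. An unadjusted p under 0.05 was reached by 4 member probes (30.8%, against 8.06% of all probes), namely those of S100A12 (both), ANXA1 and ANXA2 (1 of 2). Of these, 3 were higher after knockdown (23.1%, against 3.15% of all probes). Both S100A12 probes read the same gene and are not independent, and the members were chosen with earlier results of these data known. In the remaining 9 probes log2 fold changes were between -0.17 and 0.24. On single spots, with a further p under 0.05 asked of repeated spots of a probe, 1 member spot was called, beside 1.51% of all spots. The groups did not overlap in 7 of 13 probes (53.8%), and in 36.6% of all probes. Knockdown arrays were above the controls in 5 (38.5%, against 15.2%) and below them in 2 (15.4%, against 21.4%). The median log2 fold change was 0.053 over the member probes and -0.018 over all probes. With 2 arrays against 2 the smallest two-sided exact permutation p is 0.333. The p-values of limma can be smaller because they rest on an assumption of normally distributed errors. The variance of each probe is estimated there with information from all probes. In pooled RNA of a whole culture, fewer cells of a type and less RNA per cell cannot be told apart.

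**Figure D1:**
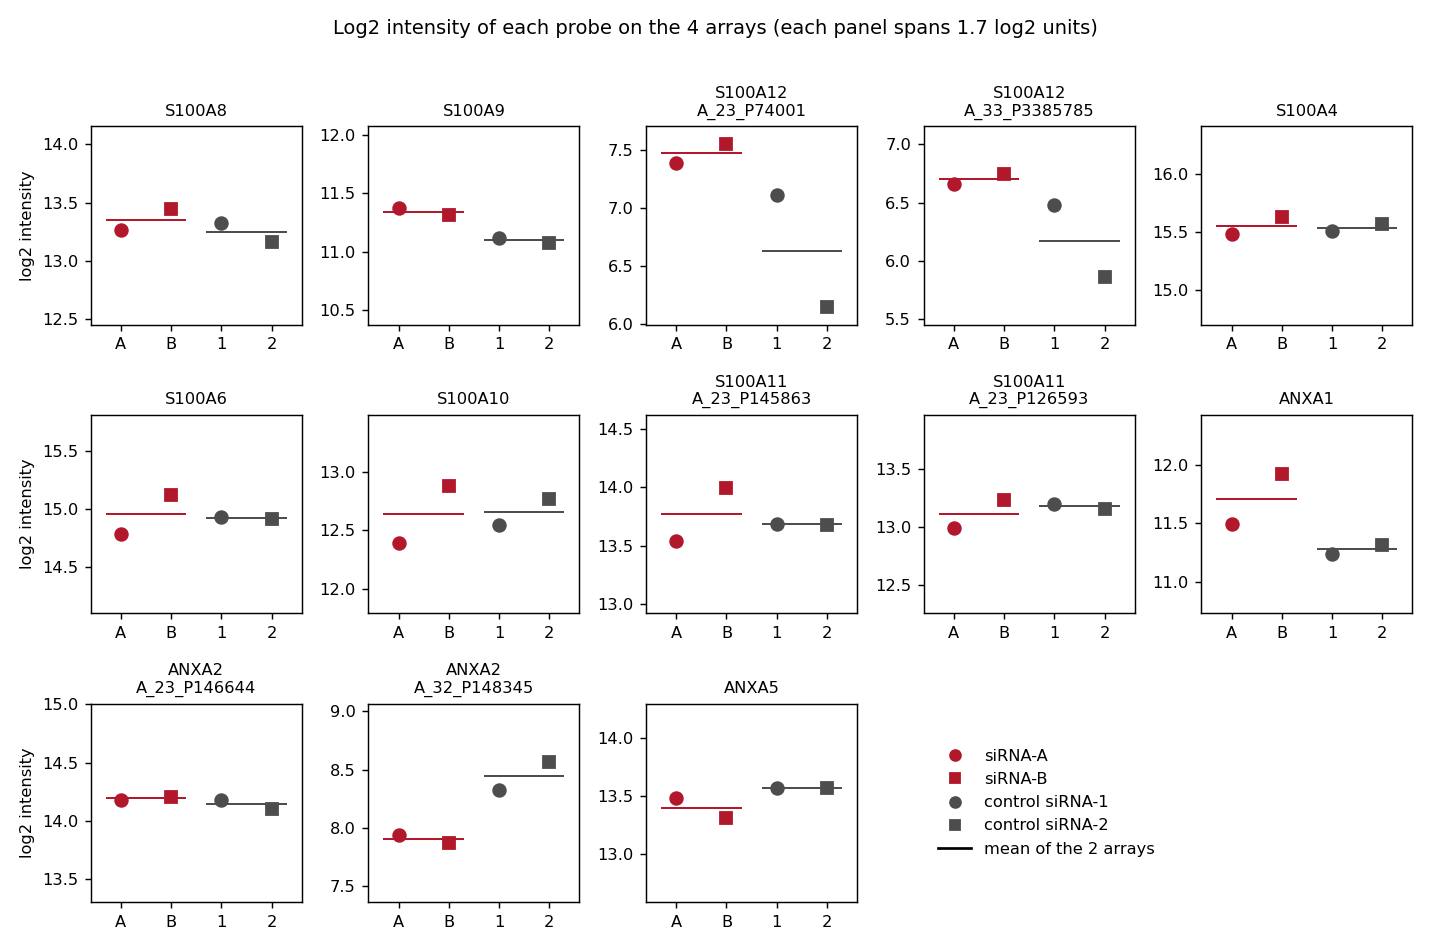
Log2 intensity (vertical axis, log2 units, each panel spanning 1.7 of them) of each member probe on the 4 arrays (A and B, siRNA-A and siRNA-B; 1 and 2, the controls of that number), with lines for the mean of 2 arrays. The knockdown arrays are above the controls for S100A9 and ANXA1 and below them for ANXA2 A_32_P148345, while for S100A12 the control siRNA-2 array is well below the control siRNA-1 array.

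The calgranulin genes lie next to each other on chromosome 1. The S100A9 probe, at 153330874 to 153333143 of hg19 on the plus strand, covers an interval of 2270 bases and so crosses at least 1 intron. S100A9 had a log2 intensity of 11.37 with siRNA-A and 11.31 with siRNA-B, against 11.12 with control siRNA-1 and 11.08 with control siRNA-2. Both knockdown arrays were thus higher than both controls, and arrays of the same treatment differed by 0.056 and 0.040. The difference was 0.24 (standard error 0.11, 95% interval -0.0036 to 0.49), with an unadjusted p of 0.0527 and an adjusted p of 0.629 in limma, and was not called.

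S100A8, the partner of S100A9 in calprotectin, is measured on the minus strand of chromosome 1 at 153362548 to 153362607. Its log2 intensity was 13.26 with siRNA-A, 13.44 with siRNA-B, 13.33 with control siRNA-1 and 13.16 with control siRNA-2. The siRNA-A array lay between the controls, so the groups overlapped. The difference of 0.11 (standard error 0.12, 95% interval -0.17 to 0.39, adjusted p = 0.880 in limma) was smaller than the gap of 0.18 between the knockdown arrays, and ranged from 0.017 to 0.20 with 1 array left out.

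S100A12, whose product is a proinflammatory ligand of the receptor RAGE, was higher after knockdown on both of its probes, and 1 of them had the largest difference of the 13 member probes. A_23_P74001 (chromosome 1, 153346234 to 153346293) read 7.39 with siRNA-A, 7.55 with siRNA-B, 7.11 with control siRNA-1 and 6.15 with control siRNA-2. A_33_P3385785, whose start lies 112 bases away (153346346 to 153346405), read 6.66, 6.75, 6.48 and 5.86 in the same order. On either probe both knockdown arrays were higher than both controls, but the control arrays differed from each other by 0.96 and 0.62, while the knockdown arrays differed by 0.16 and 0.090. The log2 fold change was 0.84 on A_23_P74001 (1.79-fold, standard error 0.26, 95% interval 0.25 to 1.43, unadjusted p = 0.0105, adjusted p = 0.463 in limma) and 0.54 on A_33_P3385785 (1.45-fold, standard error 0.18, 95% interval 0.12 to 0.96, unadjusted p = 0.0184, adjusted p = 0.520). Neither probe was called. The size rested on control siRNA-2: without that array the values were 0.36 and 0.23, and without control siRNA-1 they were 1.32 and 0.85. Both were called in the latter fit, in which the lone control array is assumed to vary like the 2 knockdown arrays. The probe intensities before log2 were 58.0 to 187, against a median local background of 19.0 to 22.0, and the differences were 1.20 (standard error 0.52, unadjusted p = 0.0869 in limma) and 0.95 (standard error 0.43, unadjusted p = 0.0946) with the scaled background-subtracted signal, and 0.67 and 0.41 after normexp and quantile normalization.

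S100A4 and S100A6, regulators of motility and of growth that are widely expressed, did not pass the test either. S100A4 (chromosome 1, 153516198 to 153516257) had log2 intensities of 15.48 with siRNA-A, 15.63 with siRNA-B, 15.51 with control siRNA-1 and 15.56 with control siRNA-2. Here the controls lay between the knockdown arrays, with a difference of 0.019 (standard error 0.11, 95% interval -0.24 to 0.28). S100A6 (chromosome 1, 153507255 to 153507685, an interval of 431 bases) had 14.79 with siRNA-A, 15.13 with siRNA-B, 14.93 with control siRNA-1 and 14.91 with control siRNA-2. The groups overlapped in the same manner, and the mean difference was 0.035 (standard error 0.13, 95% interval -0.27 to 0.34).

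S100A10 and S100A11, the annexin partners, likewise did not pass the test. The S100A10 probe (chromosome 1, 151955420 to 151955479) gave 12.40 with siRNA-A, 12.88 with siRNA-B, 12.55 with control siRNA-1 and 12.77 with control siRNA-2, a mean difference of -0.019 (standard error 0.17, 95% interval -0.40 to 0.36). This direction turned with another scaling, to 0.018 after quantile and 0.030 after cyclic loess normalization. For S100A11, A_23_P145863 (152005160 to 152005219) gave 13.54, 13.996, 13.69 and 13.67 in the same order of arrays, and A_23_P126593 (152005219 to 152005278), which shares 1 position with it, gave 12.99, 13.23, 13.20 and 13.16. The log2 fold changes of these neighbours, 0.088 (standard error 0.15) and -0.067 (standard error 0.12), had opposite signs and differed by 0.16, about the size of their errors. On every one of these probes the siRNA-A array was the lowest of the 4 and the siRNA-B array the highest.

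ANXA1 (chromosome 9, 75785002 to 75785061) was higher after knockdown without passing the call. Its log2 intensity was 11.49 with siRNA-A and 11.92 with siRNA-B, against 11.24 with control siRNA-1 and 11.32 with control siRNA-2. Both knockdown arrays exceeded both controls, the siRNA-B array by the wider margin. The difference of 0.43 (1.35-fold, standard error 0.15, 95% interval 0.089 to 0.77) had an unadjusted p of 0.0191 and an adjusted p of 0.520 in limma. It was 0.22 without siRNA-B and 0.64 without siRNA-A.

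ANXA2 gave different results on its 2 probes, both on the minus strand of chromosome 15. A_32_P148345, at 60639588 to 60639647, read 7.94 with siRNA-A, 7.87 with siRNA-B, 8.33 with control siRNA-1 and 8.56 with control siRNA-2. Both knockdown arrays were lower than both controls, by more than either pair of arrays differed within its group (0.072 and 0.24). The log2 fold change was -0.54 (1.45-fold lower, standard error 0.12, 95% interval -0.82 to -0.26, unadjusted p = 0.00197, adjusted p = 0.253 in limma), the only call among the members. The call was lost when either knockdown array (-0.57 without siRNA-A, -0.50 without siRNA-B) or either control array (-0.66 for the first and -0.42 for the second) was left out, and after background subtraction with (-0.52) and without (-0.55) scaling. A_23_P146644, at 60639880 to 60641324, spans 1445 bases and so crosses at least 1 intron, and read 14.18 with siRNA-A, 14.21 with siRNA-B, 14.18 with control siRNA-1 and 14.10 with control siRNA-2. On this probe the 4 arrays lay within a narrow range, and their groups differed by 0.053 (standard error 0.11, 95% interval -0.20 to 0.30, adjusted p = 0.946 in limma). The intervals of the probes did not overlap, and their fold changes differed by 0.59, a difference that was not tested itself. Probes named for the ANXA2 pseudogenes ANXA2P1 and ANXA2P3 had log2 fold changes of -0.10 (standard error 0.11) and -0.034 (standard error 0.11). How far near-identical copies of ANXA2 add to the signal of these probes was not tested.

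ANXA5, the annexin used to stain exposed phosphatidylserine on dying cells, is measured on chromosome 4 at 122589479 to 122589538. It read 13.48 with siRNA-A, 13.31 with siRNA-B and 13.57 with either control. Both knockdown arrays lay below both controls, which differed by 0.0033. The difference of -0.17 (standard error 0.11, 95% interval -0.43 to 0.093, adjusted p = 0.780 in limma) was not called, and was -0.084 without siRNA-B and -0.25 without siRNA-A.

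**Figure D2:**
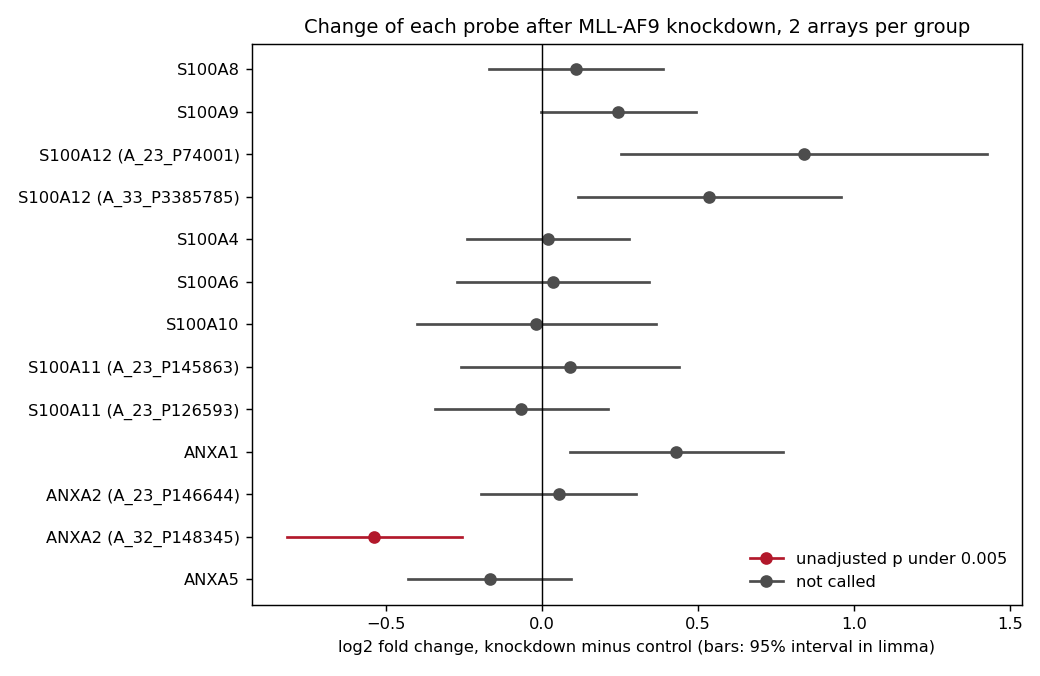
Log2 fold change of each member probe (horizontal axis, log2 units, knockdown minus control, 2 arrays per group), with bars for the 95% interval in limma and red for an unadjusted p under 0.005. The intervals of ANXA2 A_32_P148345 (-0.82 to -0.26), of both S100A12 probes and of ANXA1 exclude 0, and that of the other ANXA2 probe (-0.20 to 0.30) does not.

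The effect of the siRNAs was next considered singly, each knockdown array against the mean of both controls. For S100A9 siRNA-A gave 0.27 and siRNA-B 0.22, for S100A12 0.76 and 0.92 (A_23_P74001) and for ANXA2 A_32_P148345 -0.50 and -0.57, so that either siRNA stood on the same side of the control mean. For ANXA1 the values were 0.22 and 0.64. S100A6 (-0.13 and 0.20), S100A10 (-0.26 and 0.23), S100A11 A_23_P145863 (-0.14 and 0.32) and A_23_P126593 (-0.19 and 0.052) and S100A4 (-0.053 and 0.091) were lower than the control mean with siRNA-A and higher with siRNA-B. The siRNA-B array exceeded the siRNA-A array in 10 of 13 member probes, with a median difference of 0.16 over the members and 0.060 over all probes. An excess of siRNA-B over siRNA-A of more than 0.3, a limit chosen after the values were seen, occurred in S100A6, S100A10, S100A11 A_23_P145863 and ANXA1, 4 of 13 probes (30.8%) against 10.2% of all probes, and a difference of that size in either direction in the same 4 against 15.4%. Each siRNA is represented by 1 array, so the difference between siRNAs has no replicate and was not tested.

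**Figure D3:**
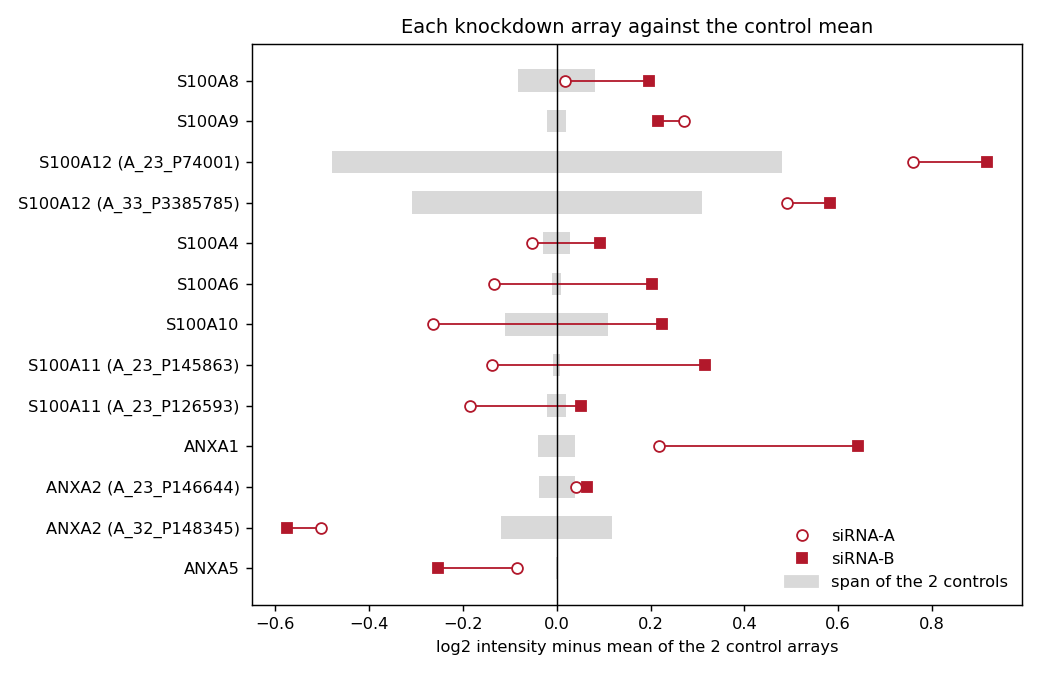
Log2 intensity of the siRNA-A (open circles) and siRNA-B (filled squares) arrays minus the mean of the control arrays (horizontal axis, log2 units) for each member probe, with grey bars for the span of the 2 controls. The siRNAs lie on the same side of 0 for S100A8 (0.017 and 0.20), S100A9, S100A12, ANXA1, ANXA2 and ANXA5 and on opposite sides for S100A4, S100A6, S100A10 and S100A11.

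Related genes were read on the brightest probe of each gene, where 1.35% of all 20654 genes were called (0.596% higher and 0.755% lower) and 8.2% had an unadjusted p under 0.05. Of 10 other S100 genes measured 0 were called, and 3 had an unadjusted p under 0.05 in limma. S100A5, a neighbour of S100A4 and S100A6 in the gene cluster, read 7.60 with siRNA-A and 7.84 with siRNA-B, against 6.87 and 7.40 in control arrays (log2 fold change 0.58, standard error 0.18, adjusted p = 0.456). S100P, a member first found in placenta, read 12.21 and 12.51 against 12.59 and 12.77 (-0.32, standard error 0.14, adjusted p = 0.609). In both genes the knockdown arrays lay beyond the controls, but single arrays moved the values. S100A5 was at 0.32 when control siRNA-1 was omitted and at 0.85 when control siRNA-2 was, and S100P was at -0.17 without siRNA-A and -0.47 without siRNA-B. The remaining one, S100B, named after its values were seen, was not well above background on both arrays of either group, and no fold is given for it. The median over these S100 genes was -0.018, beside -0.019 over all genes.

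Of 7 other annexin genes measured, 0 were called and 1 had an unadjusted p under 0.05. This was ANXA4, a phospholipid binder of epithelia and other tissues, with 12.84 and 12.88 after knockdown against 13.22 and 13.17 in controls (-0.33, standard error 0.11, adjusted p = 0.498 in limma). The brightest probe of ANXA11 differed by -0.13 (standard error 0.12, adjusted p = 0.835) and the remaining probe by 0.18. On the brightest probe the difference was -0.043 without siRNA-A and -0.22 without siRNA-B. Over the annexin genes the median was -0.083.

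Among 7 receptors of S100 proteins and ANXA1, 0 were called and 1 had an unadjusted p under 0.05. CD36, a scavenger receptor that binds S100A8 and S100A9 in complex with arachidonic acid, read 11.27 and 11.46 after knockdown against 11.04 and 10.82 in controls (0.44, standard error 0.13, adjusted p = 0.434 in limma). LY96, the MD-2 coreceptor of TLR4, differed by -0.22 (standard error 0.11, adjusted p = 0.694). The list median was 0.074.

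Of 9 binding partners reported here 0 were called, and 2 had an unadjusted p under 0.05 in limma. NCF1, the p47phox subunit of the phagocyte NADPH oxidase, which has near-identical pseudogenes, differed by 0.50 (standard error 0.18, adjusted p = 0.529) on its brightest probe and by 0.086 to 0.21 on the other 3. The brightest probe read 11.46 and 11.65 after knockdown against 10.77 and 11.33 in controls, and its difference was 0.22 with only the second control and 0.78 with only the first. CYBB, the gp91phox subunit, read 11.20 and 11.48 after knockdown against 11.09 and 10.79 in controls (0.40, standard error 0.15, adjusted p = 0.547 in limma), and its difference was 0.25 when either siRNA-B or control siRNA-2 was omitted. RAC2 went the other way, by -0.39 (standard error 0.26, adjusted p = 0.770 in limma). Against the control mean it was -0.87 with siRNA-A and 0.093 with siRNA-B. The median of the list was 0.038.

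Of 4 genes of the plasminogen system measured 1 was called. SERPINB2, the plasminogen activator inhibitor PAI-2 of monocytes, read 9.55 with either knockdown siRNA against 8.75 and 8.72 in the controls. It rose by 0.82 (1.76-fold, standard error 0.11, 95% interval 0.57 to 1.06, adjusted p = 0.0405 in limma), and its unadjusted p stayed under 0.005 in all 12 alternative settings (0.80 to 0.94). Its adjusted p was 0.161 to 0.215 after the normalizations between arrays, and higher with either background-subtracted signal or with 1 array left out. PLAU, the urokinase gene, was higher on both its probes by 0.32 (standard errors 0.12 and 0.11, adjusted p = 0.565 and 0.521) and not called, and on the brighter probe the difference was 0.20 without siRNA-B. Of 8 myeloid transcription factors 0 were called and 2 had an unadjusted p under 0.05. These were KLF4 (0.48, standard error 0.15, adjusted p = 0.464), a factor of monocyte differentiation, and CEBPB (0.33, standard error 0.11, adjusted p = 0.515), a factor that binds myeloid promoters. KLF4 read 7.99 and 8.09 after knockdown against 7.76 and 7.34 in controls, and its difference was 0.69 with only the second control and 0.27 with only the first. The medians were 0.16 and 0.062 for these lists.

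**Figure D4:**
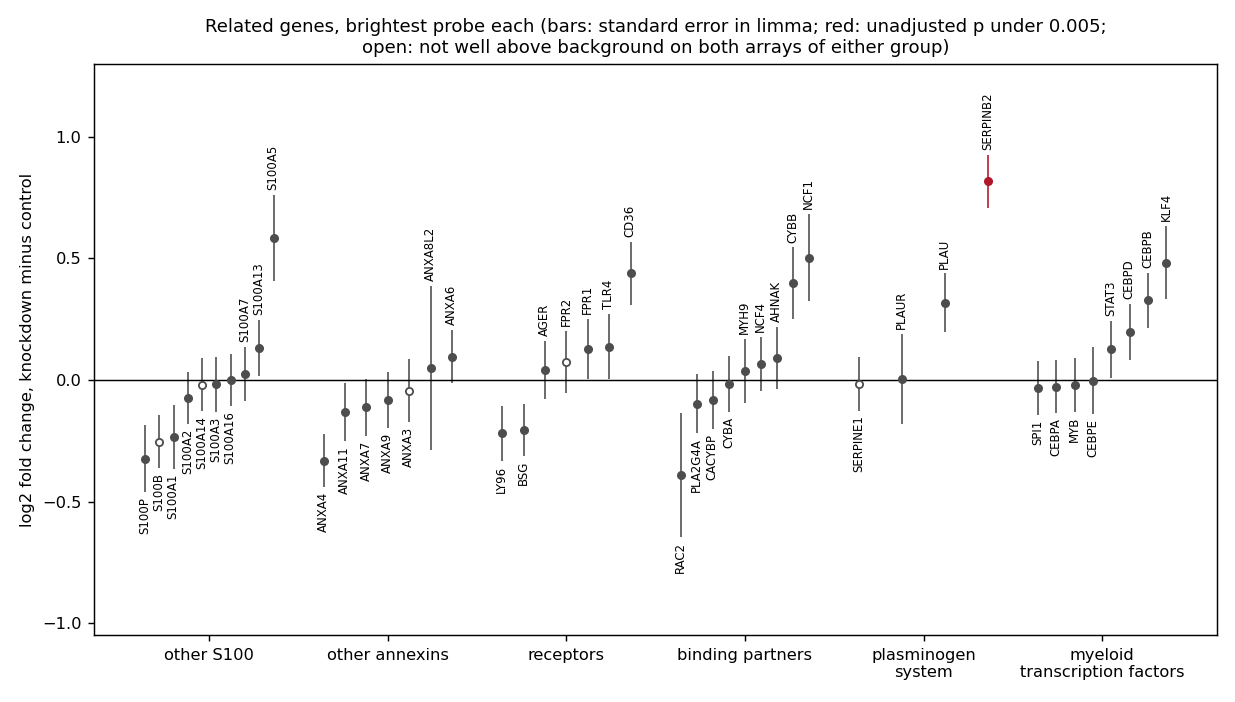
Log2 fold change (vertical axis, log2 units, knockdown minus control, 2 arrays per group) of the genes of 6 related lists, on the brightest probe of each, with bars for the standard error in limma. SERPINB2 (0.82), in red, is the called gene among those plotted, and open points mark 5 genes that were not well above background on both arrays of either group.

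**Figure D5:**
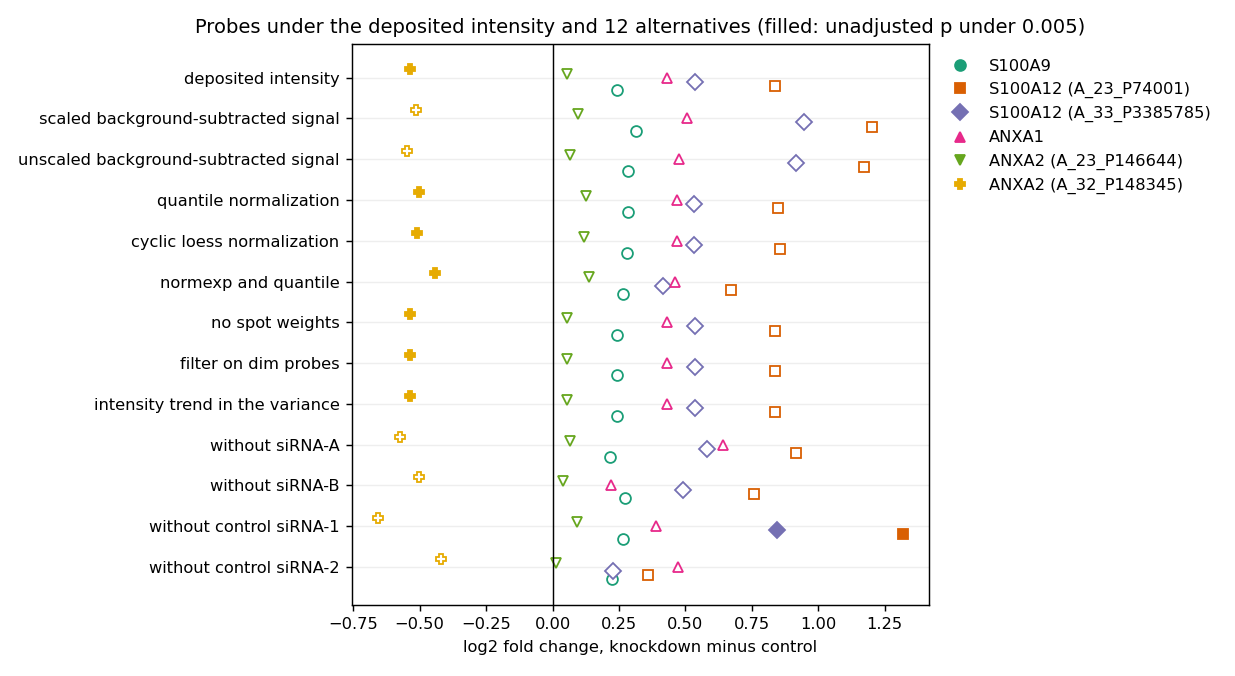
Log2 fold change (horizontal axis, log2 units) of the probes of S100A9, S100A12, ANXA1 and ANXA2 under the deposited intensity and 12 alternatives (vertical axis), filled where the unadjusted p was under 0.005. S100A12 ranges from 0.23 to 1.32 with the control array left out, and ANXA2 A_32_P148345 stays between -0.66 and -0.42.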

How the data were processed

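Per the labels, Cy3-labelled cRNA of 0.1 ug total RNA per pool was hybridised to Agilent arrays, and spots were extracted by the authors with Agilent Feature Extraction 10.5.1.1. In 100% of 44495 spots the deposited intensity was identical to the scanner's median pixel value. The deposited weights are a quality score per spot, and how they were set is not stated in the sources used here. After omission of 1377 control spots, 33323 spots (26219 probes) remained with weights above 0 throughout, and identical spots were averaged. No member spot was saturated, and all 13 were well above background and had full weight on every array. As in the methods of the study, limma (here 3.58.1 in R 4.3.3) was applied to unnormalized log2 intensity. The use of the weights, the mean of identical spots and the absence of covariates were choices made here. The study also required a change over identical spots of a probe, which was tried as an alternative, and each member probe had 1 spot. The study reports raised CEBPB and names S100A12 among genes overlapping a set from chronic myeloid leukemia. Neither was called in the main fit here. P-values are two-sided, and calls are at an unadjusted p under 0.005, with Benjamini-Hochberg adjustment over all probes. Replicates are pools, and n is 2 arrays per group. Standard errors and intervals therefore do not measure the spread between single experiments. The fit was tested on simulated data.

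Genes named are all members, MLL and MLLT3, and of each list the called genes and those with the 2 largest changes among genes well above background. Some marker genes and the ANXA2 pseudogenes were named as well, and so were S100B and RAC2 after their values were seen. PLG and PLAT of the plasminogen list, FPR3, SUGT1, S100A7A, S100G, S100Z, ANXA8, ANXA8L1, ANXA10 and ANXA13 were not analysed here, and 1 gene of the list of binding partners is not reported here. Members and lists were chosen with earlier results of these data known. Alternatives were the background-subtracted signal of the scanner tables, scaled to its 75th percentile or unscaled, quantile and cyclic loess normalization, normexp (offset 50) followed by quantile normalization, no weights, a filter on dim probes, a variance trend, the omission of each array, other p thresholds and single spots. Probe positions and names are those of the scanner tables (hg19). All 13 accessions matched the same symbol in RefSeq (GRCh38.p14), of which no coordinate was used.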

Additional observations from a re-analysis of the deposited data

How the results depend on the processing

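No paired analysis was possible because each array held a pool of 5 experiments, and the labels pair no knockdown array with a control array. Of the 13 member probes 8 kept their direction under each of 12 alternative settings. S100A10 turned to 0.032 and 0.0013 after background subtraction with and without scaling, 0.018 after quantile, 0.030 after cyclic loess and 0.039 after normexp and quantile normalization. With 1 array left out, it ranged from -0.26 to 0.23, S100A4 from -0.053 to 0.091 (0.23 after normexp and quantile normalization), S100A6 from -0.13 to 0.20 and S100A11 from -0.14 to 0.32 (A_23_P145863) and -0.19 to 0.052 (A_23_P126593). Of the MLL probes, A_33_P3307307 turned to 0.0055 after normexp and quantile normalization and A_33_P3390576 to -0.031 and -0.062 with the scaled and unscaled background-subtracted signal, and with 1 array left out A_33_P3307307 ranged from -0.068 to 0.014, A_33_P3390576 from -0.00067 to 0.097 and A_24_P136402 from -0.22 to 0.047. The number of member probes called was 0 with either background-subtracted signal and with an adjusted p under 0.05, 4 with an unadjusted p under 0.05, 1 on single spots, and 0 to 2 with 1 array left out. For MLL and MLLT3 it was 1 with either background-subtracted signal and 1 without any 1 array, the call of MLLT3 A_24_P192627 being lost each time (-0.86 to -0.52), and 3 after quantile, cyclic loess or normexp and quantile normalization and with the filter on dim probes, where MLL A_33_P3390570 (-0.41 to -0.38) was called as well. The number of other S100 genes called was 1 with either background-subtracted signal, of binding partners 0 to 1 with 1 array left out, and of plasminogen genes 2 after normexp and quantile normalization. The cause was not tested. S100A12, with log2 intensities of 5.86 to 7.55, was the dimmest member, and the number of arrays, 2 per group, limits the precision of every value.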
